A study of Mus musculus with 32 samples.

Results

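The 10 genes described here are mitochondrially encoded messenger RNAs, transcribed from the small circular genome inside mitochondria. They were chosen by symbol, after the deposited Ensembl gene identifiers had been named with GENCODE M21 on the GRCm38 mouse genome: mt-Nd1, mt-Nd2, mt-Nd4, mt-Nd5, mt-Nd6, mt-Cytb, mt-Co1, mt-Co2, mt-Co3 and mt-Atp6. They are 10 of 56246 gene rows in the count table, 10 of the 37 mitochondrial genes in it, and 10 of the 13 mitochondrial genes that code for protein. The other 3, mt-Nd3, mt-Nd4l and mt-Atp8, together held between 0 and 226 counts per library and were not among the chosen genes.

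RNA sequencing was done on sorted bone marrow cells of C57BL/6 mice carrying a FLT3-ITD transgene, which makes the growth factor receptor FLT3 signal without its ligand, as happens in a share of acute myeloid leukemias. The LSK gate takes the most immature cells of the marrow, and the GMP gate takes progenitors that are bound to become granulocytes and macrophages. Lys05 blocks lysosomes and with them autophagy, AC220 (quizartinib) inhibits the FLT3 kinase, and Combination stands for both drugs. The study asked what each drug does in these cells alone and how one alters the effect of the other. The groups are LSK with Lys05, LSK with AC220, LSK with Combination, LSK with Vehicle, GMP with Lys05, GMP with AC220, GMP with Combination and GMP with Vehicle, with 4 libraries each and 32 in all. Every group carries the transgene, so the Vehicle groups are cells of the same transgenic mice and not wild type. The labels speak of biological replicates but give no dose, duration, batch, animal number, age or promoter of the transgene, and no number that ties an LSK library to a GMP library. Libraries are numbered 1 to 4 within a group only to name them.

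Mitochondrial DNA is transcribed from both strands into long precursor RNAs, which are cut mostly at the tRNAs that lie between the coding regions. The protein products are core subunits of the respiratory chain and the ATP synthase, and most of their partner subunits are encoded in the nucleus and imported. Genes of a strand share precursors, so mature messengers can come to differ through processing and stability as well as through transcription. Most mitochondrial messengers carry poly(A) tails in mammals, which is why libraries primed on poly(A) hold them.

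Of the members, mt-Nd1 (GRCm38 chrM:2751-3707, plus strand), mt-Nd2 (chrM:3914-4951, plus), mt-Nd4 (chrM:10167-11544, plus), mt-Nd5 (chrM:11742-13565, plus) and mt-Nd6 (chrM:13552-14070, minus) encode subunits of complex I, the NADH dehydrogenase. The gene mt-Cytb (chrM:14145-15288, plus) encodes cytochrome b of complex III. The genes mt-Co1 (chrM:5328-6872, plus), mt-Co2 (chrM:7013-7696, plus) and mt-Co3 (chrM:8607-9390, plus) encode the core subunits of complex IV, cytochrome c oxidase, and mt-Atp6 (chrM:7927-8607, plus) encodes a subunit of complex V, the ATP synthase. Only mt-Nd6 lies on the minus strand, and the annotated spans of mt-Nd5 and mt-Nd6 overlap at their ends. The strand setting of the counting is not given in the sources used here, so reads from the overlap of mt-Nd5 and mt-Nd6 cannot be told apart. Outside the overlap too, counts of mt-Nd6 may include RNA of the other strand.

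Several members have near-identical copies in the nuclear genome, which bears on where a read can be placed. A stretch on chromosome 1, minus strand, holds annotated pseudogenes of mt-Co2 (Gm28661, 681 aligned bases, 0 mismatches), mt-Co3 (Gm28437, 783 aligned bases, 0 mismatches), mt-Atp6 (Gm10925, 678 aligned bases, 0 mismatches), mt-Nd4 (Gm28439, 876 aligned bases, 0 mismatches) and the end of mt-Co1 (Gm29216, 483 aligned bases, 1 mismatch). The first 150 bases of mt-Atp6 and of its copy are shown because they contain no base that separates them. Those of mt-Co1 and Gm29216 are shown where the copy's annotation begins, and those of mt-Cytb with its copy Gm11410 show a gene whose nuclear relative has diverged. Capitals mark the bases that differ within a pair, and all are printed from GENCODE M21 transcripts in the 5′ to 3′ direction of the transcript.
mt-Atp6, chrM:7927-8076, plus: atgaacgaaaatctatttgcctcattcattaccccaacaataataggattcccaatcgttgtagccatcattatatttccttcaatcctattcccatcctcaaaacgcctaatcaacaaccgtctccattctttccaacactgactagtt
Gm10925, chr1:24614502-24614651, minus: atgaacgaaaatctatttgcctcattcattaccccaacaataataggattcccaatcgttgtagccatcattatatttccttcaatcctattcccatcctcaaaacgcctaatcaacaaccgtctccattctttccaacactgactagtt
mt-Co1, chrM:6381-6440, plus: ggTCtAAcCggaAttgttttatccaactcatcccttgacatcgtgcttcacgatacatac
Gm29216, chr1:24616138-24616197, minus: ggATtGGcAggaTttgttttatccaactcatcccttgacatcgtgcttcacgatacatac
mt-Cytb, chrM:14445-14594, plus: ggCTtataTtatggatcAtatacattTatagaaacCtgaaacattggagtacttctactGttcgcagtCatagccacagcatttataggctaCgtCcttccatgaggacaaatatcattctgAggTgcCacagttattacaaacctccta
Gm11410, chr4:80004289-80004438, plus: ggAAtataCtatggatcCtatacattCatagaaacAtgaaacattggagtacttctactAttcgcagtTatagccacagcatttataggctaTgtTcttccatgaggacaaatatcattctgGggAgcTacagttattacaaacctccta

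The pair of mt-Atp6 and Gm10925 had 0 differences in 150 bases, that of mt-Co1 and Gm29216 had 6 in 60, all near the edge of the copy, and that of mt-Cytb and Gm11410 had 13 in 150. The sequencing reads were 150 bases long, so the share of a gene's 150-base windows that also occur exactly in another annotated transcript was taken as a measure of what a single read can tell apart. That share was 99.8% for mt-Co3, 99.4% for mt-Co2 and 99.4% for mt-Atp6, 59.2% for mt-Nd4 and 23.6% for mt-Co1, and 0% for mt-Nd1, mt-Nd2, mt-Nd5, mt-Nd6 and mt-Cytb. Windows were compared with annotated transcripts only, and reads came in pairs, so a mate outside the shared stretch can still place a pair. The copies on chromosome 1 were counted beside their partners: per count of the mitochondrial gene, Gm28661 had 1.17 to 2.34 counts, Gm28437 1.11 to 1.74 and Gm10925 1.59 to 3.39, over the 32 libraries. Across the same libraries, log2 CPM of copy and partner correlated at r = 0.988 for mt-Co2, r = 0.994 for mt-Co3 and r = 0.992 for mt-Atp6, a description over 32 libraries in which both genes of a pair share library, depth and sequence. Counts of these 3 members and of their copies are therefore uncertain as levels of either gene.

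Levels per length were lowest for those 3 members. Levels in CPM, a gene's counts per M gene counts of the library, were divided by transcript length, and the median over the 32 libraries was 2021 CPM per kb for mt-Cytb, 1133 for mt-Co1, 568 for mt-Nd1, 326 for mt-Nd5, 319 for mt-Nd4, 154 for mt-Nd6 and 109 for mt-Nd2. The remaining medians were 6.03 CPM per kb for mt-Co3, 3.84 for mt-Co2 and 3.51 for mt-Atp6. Within a library, the lowest of the first 7 stood above the highest of these 3 in 32 of 32 libraries. Per length, mt-Cytb stood above mt-Co1, mt-Co1 above mt-Nd1 and mt-Nd1 above mt-Nd5, each in 32 of 32 libraries. Full length was used also for mt-Nd4 and mt-Co1, with 59.2% and 23.6% of their windows shared, so their places in the order are uncertain. Neighbours that changed places were mt-Nd5 and mt-Nd4 (mt-Nd5 higher in 24 of 32 libraries), mt-Nd6 and mt-Nd2 (mt-Nd6 higher in 28 of 32), mt-Co3 and mt-Co2 (mt-Co3 higher in 29 of 32) and mt-Co2 and mt-Atp6 (mt-Co2 higher in 9 of 32). By count, mt-Cytb and mt-Co1 together made up 61.4% to 76.3% of the counts on the 10 genes, and mt-Co2, mt-Co3 and mt-Atp6 together 0.0794% to 0.324%.

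**Figure D1:**
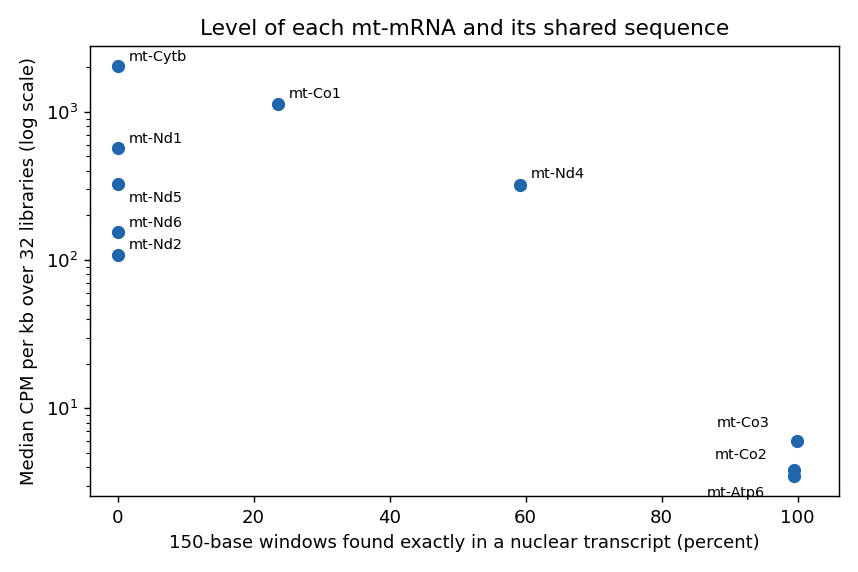
Median level of each mitochondrial messenger over 32 libraries (vertical axis, CPM per kb, log scale) against the percentage of its 150-base windows found exactly in a nuclear transcript (horizontal axis), 1 point per gene. The genes mt-Co2, mt-Co3 and mt-Atp6 lie at 99.4% to 99.8% and 3.51 to 6.03 CPM per kb, while the other 7 lie at 109 to 2021 CPM per kb.

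The share of all gene counts that fell on the 10 genes varied widely within groups, most of all in GMP. Gene counts per library ran from 35.7 to 55.9 M, so counting error is small beside these differences: the lowest share, 0.182% in LSK Combination library 3, has a 95% Wilson interval of 0.180% to 0.183%, and the highest, 15.7% in GMP Combination library 3, one of 15.71% to 15.73%, for counting error only. In LSK, the shares in libraries 1 to 4 were 0.417%, 0.392%, 0.434% and 0.595% with Lys05, 0.318%, 0.231%, 0.316% and 0.247% with AC220, 0.592%, 0.414%, 0.182% and 0.295% with Combination, and 1.38%, 0.807%, 0.413% and 0.536% with Vehicle. All 4 AC220 shares lay below all 4 Vehicle shares, while Lys05 and Combination overlapped with Vehicle. In GMP, the shares were 8.12%, 1.15%, 0.340% and 0.563% with Lys05, 1.90%, 0.571%, 1.09% and 0.335% with AC220, 1.43%, 5.81%, 15.7% and 1.74% with Combination, and 10.5%, 4.52%, 2.08% and 2.61% with Vehicle. Here too AC220 lay wholly below Vehicle, and Lys05 would but for library 1. In sorted bulk samples a smaller number of cells of some type and less RNA per cell cannot be told apart.

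**Figure D2:**
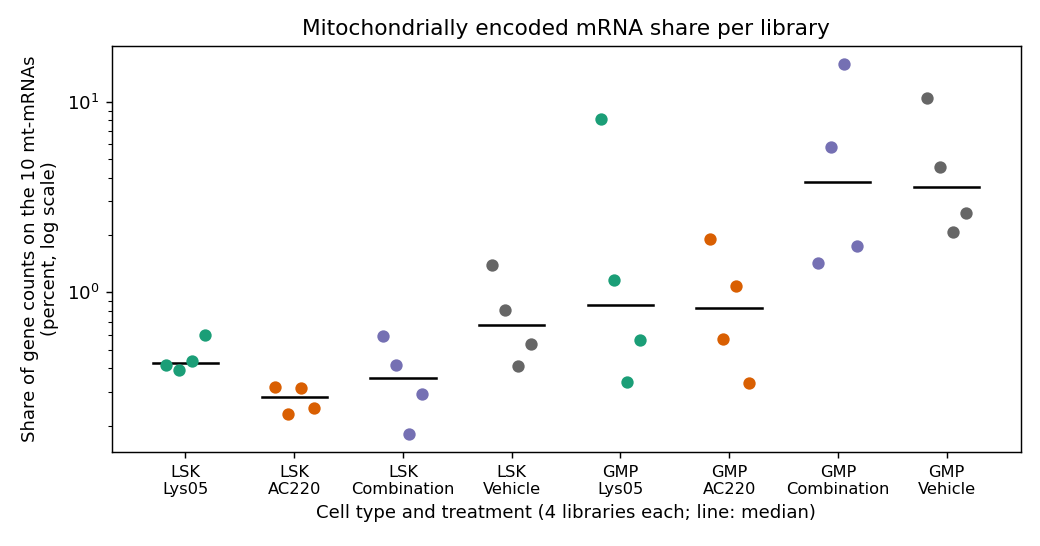
Percentage of gene counts on the 10 mitochondrial messengers in each library (vertical axis, log scale) by cell type and treatment, 4 libraries per group, with a line at the median. Shares in LSK lie between 0.182% and 1.38%, and those in GMP between 0.335% and 15.7%.

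In all 8 of 8 groups, the library with the highest share was also the one least like its group mates over nuclear genes, by the median Pearson correlation of log2 CPM with the other 3. These were LSK Lys05 library 4 (r = 0.954), LSK AC220 library 1 (r = 0.9605), LSK Combination library 1 (r = 0.962), LSK Vehicle library 1 (r = 0.934), GMP Lys05 library 1 (r = 0.861), GMP AC220 library 1 (r = 0.768), GMP Combination library 3 (r = 0.642) and GMP Vehicle library 1 (r = 0.824). GMP Combination library 3, with the highest share of all, also had the most genes at 10 or more counts, 15738 against 10372 to 11800 in the other libraries of its group. Reads set aside as not uniquely aligned made up 18.8% of all counts in that library, 18.4% in GMP Vehicle library 1 and 16.2% in GMP Lys05 library 1. They made up 7.67% to 13.1% in the other GMP libraries and 5.51% to 10.2% in LSK. The part of any of these in the results was not tested, and each count of genes below is also given without those 8 libraries where that moved it by over 1.5 times. The sort labels held: 8 stem and progenitor markers (among them Kit, Hlf and Mecom) summed to 221 to 694 CPM in LSK and 29.0 to 178 CPM in GMP, and 7 granulocyte-lineage markers (among them Mpo and Elane) to 3128 to 11316 CPM in LSK and 23324 to 77069 CPM in GMP.

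**Figure D3:**
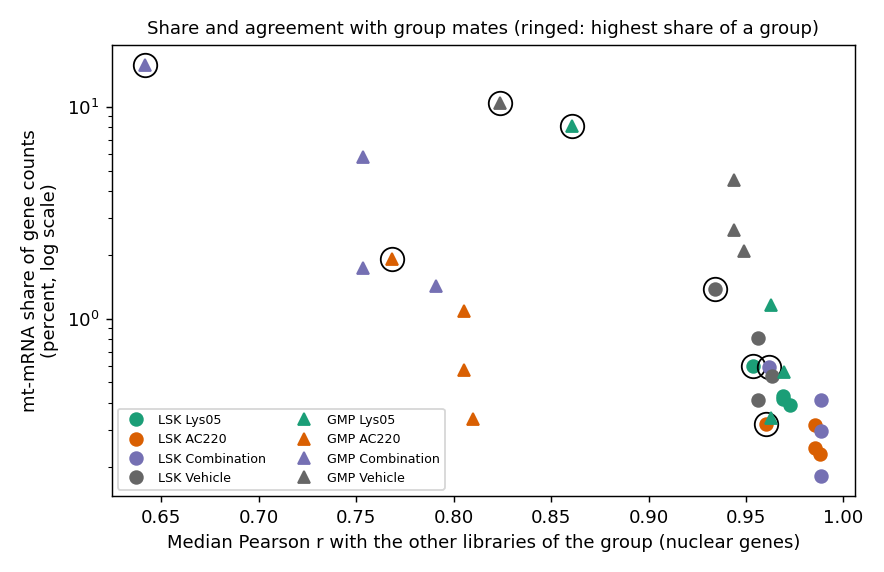
Mitochondrial messenger share of gene counts (vertical axis, percent, log scale) against the median Pearson correlation of a library with the other 3 of its group over nuclear genes (horizontal axis), circles for LSK and triangles for GMP, colored by treatment. The ringed point, the highest share of a group, is the least correlated library in 8 of 8 groups.

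AC220 in LSK came with lower counts of 8 of the 10 messengers, set against Vehicle, a direction that was lost or turned for most of them under a correction for transcript length and GC content. Among the complex I genes, mt-Nd5 had 340, 214, 265 and 240 CPM with AC220, against 1496, 871, 427 and 578 CPM with Vehicle. The groups did not overlap for mt-Nd5, and Vehicle library 1 was the highest. Its log2 fold change was -2.33 ± 0.34 (± SE, as for all log2 values, with 4 libraries a group), with an adjusted p = 2.53e-05 by the quasi-likelihood test of edgeR. The minus-strand gene mt-Nd6 had 49.9, 25.2, 33.8 and 28.4 CPM with AC220, against 180, 83.7, 50.038 and 61.6 CPM with Vehicle, so that the highest AC220 library nearly met the lowest Vehicle library (log2 fold change -2.10, edgeR adjusted p = 0.000191). For mt-Nd4 the change was -2.23 (adjusted p = 9.8e-05, edgeR). Smaller changes with overlapping groups were found for mt-Nd1, with 308, 243, 384 and 245 CPM against 1141, 566, 287 and 375 CPM with Vehicle (-1.65, edgeR adjusted p = 0.000505), and for mt-Nd2 (-1.62, edgeR adjusted p = 0.00159).

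The complex III gene mt-Cytb fell the most in LSK with AC220. It had 1153, 788, 1025 and 860 CPM with AC220, against 5607, 3288, 1711 and 2218 CPM with Vehicle, or 957 ± 164 against 3206 ± 1730 CPM (mean ± SD, n = 4 each). These groups did not overlap, and the log2 fold change was -2.40 ± 0.31 (edgeR, adjusted p = 6.08e-06). In complex IV, mt-Co1 had 1024, 830, 1175 and 869 CPM with AC220, against 4238, 2535, 1314 and 1663 CPM with Vehicle, again without overlap (-1.98, edgeR adjusted p = 0.000134). The partner subunit genes did not pass: mt-Co2 had 2.62, 2.02, 2.52 and 2.22 CPM with AC220, against 3.17, 2.53, 1.32 and 1.69 CPM with Vehicle (-0.56 ± 0.41, edgeR adjusted p = 0.266), and mt-Co3 was at -0.91 (edgeR adjusted p = 0.0592). In complex V, mt-Atp6 had 1.27, 1.56, 1.47 and 1.29 CPM with AC220, against 5.56, 3.03, 2.07 and 2.32 CPM with Vehicle. Its groups did not overlap (-1.88, edgeR adjusted p = 0.00113).

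Background in this comparison is high: 54.9% of the 15730 genes tested passed in either direction, and 25.5% passed as lower. The 8 of 10 lower and 0 of 10 higher calls among the messengers are read against that, as is their median log2 fold change of -1.93, with 0.09 over all tested genes. CPM values did not overlap between the groups and were lower in 6 of the 10, against 14.4% of tested genes, and higher in 0 of the 10, against 42.7%. The scale needs care, since the TMM factors, by which edgeR corrects total counts, were 1.27 to 1.31 in LSK AC220 and 0.731 to 0.875 in LSK Vehicle. On total counts alone the median of the members was -1.27 and that of all genes 0.78, 8 members were still lower, and mt-Co2 turned to 0.11 (edgeR adjusted p = 0.845). Counts on short nuclear transcripts moved the same way as the messengers: genes under 1000 bases took 7.41% to 8.35% of gene counts in LSK AC220 and 19.1% to 20.8% in LSK Vehicle. When each library was corrected for the trend of nuclear genes with transcript length and GC content, 0 messengers were lower and 3 higher, with a median of 0.70. That correction reaches beyond most nuclear genes, since only 29 of 9609 expressed ones lie within the members' range of length, 519 to 1824 bases, and of GC content, 34.1% to 39.9%, against nuclear medians of 3269 bases and 49.5%. How much of the lower counts goes with length and base composition was not tested beyond this.

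**Figure D4:**
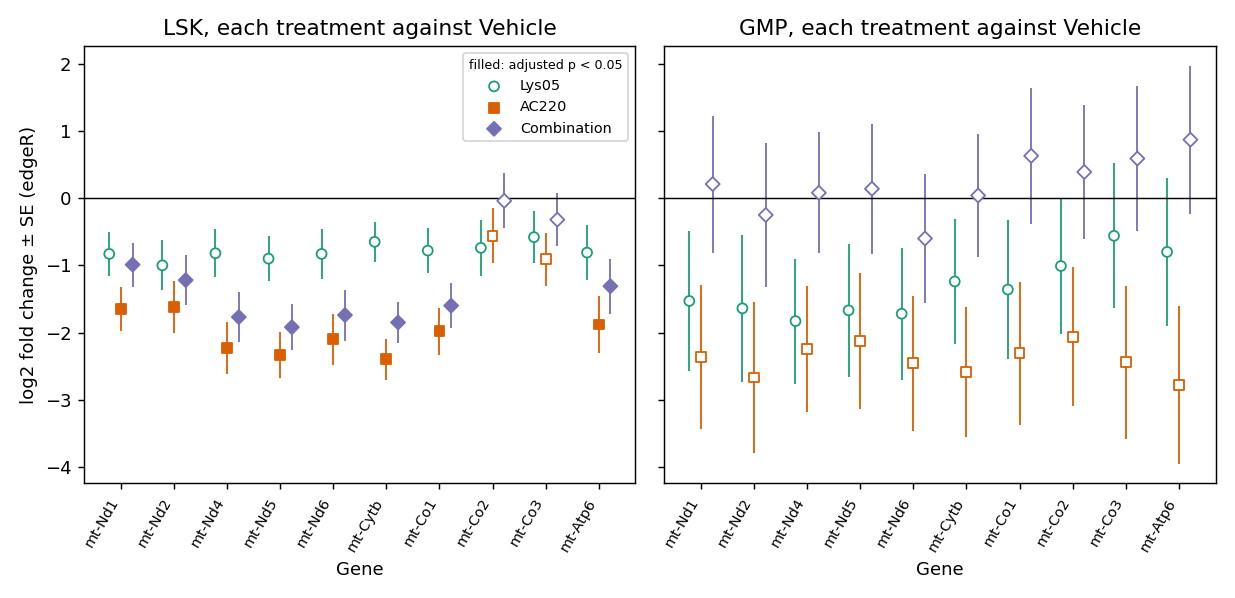
Fitted log2 fold change (vertical axis, ± SE, edgeR) of each messenger with Lys05, AC220 and Combination against Vehicle, in LSK on the left and GMP on the right, 4 libraries per group. Filled symbols passed an adjusted p under 0.05: 8 genes with AC220 and 8 with Combination in LSK, all lower, and none in GMP. With the length and GC correction, 0 were lower and 3 higher in each of those LSK comparisons.

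Marker lists of other cells differed along with AC220 in LSK. The 4 stroma and endothelium markers summed to 54.1 to 67.8 CPM with AC220 and 47.8 to 91.6 CPM with Combination, against 10.5 to 18.6 CPM with Vehicle. Between 1 and 4 of 4 had counts, and Cxcl12, Col1a1 and Cdh5 were each at 0 in several libraries. Combination library 2 had 63.3 CPM and Vehicle library 4 had 18.6 CPM with these genes all at 0, so there the sum was Pecam1 alone. The 4 macrophage markers summed to 17.1 to 21.9 CPM with AC220 and 24.9 to 33.3 CPM with Combination, against 1.33 to 10.6 CPM with Vehicle, where C1qa was at 0 in 3 of 4 libraries. The sum of the 4 T and NK cell markers went the other way, at 475 to 968 CPM with AC220 and 743 to 903 CPM with Combination, against 1431 to 1947 CPM with Vehicle. Cd3e went against that sum. It was at 0 in all 4 Vehicle libraries and had counts in AC220 libraries 2, 3 and 4 and in every Combination library. In GMP Lys05 library 3 the sum reached 4408 CPM with Cd3e and Cd3g at 0, so it need not follow T cells. The 4 neutrophil markers summed to 1193 to 2228 CPM with AC220 and 1173 to 3874 CPM with Combination, against 2392 to 6506 CPM with Vehicle. The 5 dendritic cell markers summed to 2260 to 9737 CPM with AC220 and 310 to 2668 CPM with Combination, against 8048 to 25525 CPM with Vehicle. All neutrophil and dendritic cell markers had counts in each of these libraries. The 8 stem and progenitor markers summed to 466 to 693 CPM with AC220, against 221 to 270 CPM with Vehicle. Their part in the messenger counts was not tested.

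Combination in LSK showed the same 8 genes as lower against Vehicle, with which AC220 had been compared as well, so the comparisons are not independent. The gene mt-Cytb had 2185, 1404, 728 and 1035 CPM with Combination, against 5607, 3288, 1711 and 2218 CPM with Vehicle. Combination library 1 lay above Vehicle library 3, and the log2 fold change was -1.85 ± 0.31 (edgeR, adjusted p = 8.47e-05). For mt-Nd5 the values were 578, 319, 178 and 267 CPM with Combination, against 1496, 871, 427 and 578 CPM with Vehicle (-1.92, edgeR adjusted p = 0.000166), where Combination library 1 lay above Vehicle library 3. The remaining called genes were mt-Nd4 (-1.77), mt-Nd6 (-1.74), mt-Co1 (-1.60), mt-Atp6 (-1.31), mt-Nd2 (-1.22) and mt-Nd1 (-0.99). For mt-Co2, at 4.64, 4.21, 1.35 and 2.63 CPM with Combination, against 3.17, 2.53, 1.32 and 1.69 CPM with Vehicle, the change was -0.04 ± 0.41 (edgeR adjusted p = 0.945), and for mt-Co3 it was -0.32 (edgeR adjusted p = 0.522). Of all tested genes 51.8% passed, 23.6% as lower, while the groups overlapped for all 10 members. Of tested genes 12.6% were lower and 41.7% higher without overlap. On total counts alone 5 members were lower, with mt-Co2 at 0.56 and mt-Co3 at 0.28, neither called, and with the length and GC correction 3 were higher and 0 lower.

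Set against AC220 alone, Combination in LSK left every messenger short of the threshold. All 10 fitted changes were above 0, between 0.36 for mt-Nd6 and 0.67 for mt-Nd1, with standard errors of 0.30 to 0.41, and 0.356% of tested genes passed, 0.343% as higher and 0.0127% as lower. The groups overlapped for all 10 members, where 4.59% of tested genes were higher and 6.75% lower without overlap. In edgeR 0 of 10 passed, 0 at an unadjusted p under 0.05, in DESeq2 0 and in limma voom 1 as higher, where limma voom called 1367 genes higher and 785 lower of 15730. Against Lys05 alone, 3 messengers were lower with Combination, where 49.5% of tested genes passed, 27.2% as higher and 22.3% as lower: mt-Cytb at -1.21 (edgeR adjusted p = 0.00296), mt-Nd5 at -1.02 (edgeR adjusted p = 0.0173) and mt-Nd4 at -0.95 (edgeR adjusted p = 0.0394). The gene mt-Cytb had 2185, 1404, 728 and 1035 CPM with Combination, against 1733, 1965, 1932 and 2407 CPM with Lys05, where Combination library 1 reached into the Lys05 range. All 10 members overlapped, while 43.2% of tested genes were higher and 13.8% lower without overlap. The count of lower messengers was 1 without LSK Lys05 library 4 or LSK Combination library 3 or 4, and 5 without LSK Lys05 library 2, LSK Combination library 1 or LSK Vehicle library 1, 3 or 4. It was 5 without the least correlated library of each group and 0 on total counts alone, where mt-Co2 was higher (1.33, edgeR adjusted p = 0.0167). With the length and GC correction the direction turned: 0 were lower and 7 higher, with a median of 1.37.

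Lys05 in LSK had lower fitted values for all 10 messengers, and none passed. The range was -1.0 for mt-Nd2 to -0.58 for mt-Co3, with a median of -0.81 against -0.03 over all tested genes, and edgeR adjusted p ran from 0.195 to 0.464. In this comparison 0% of tested genes passed in edgeR. Of the messengers 7 had an unadjusted p under 0.05, as had 2718 of 15730 genes. In DESeq2 0 messengers passed, with 332 genes higher and 275 lower, and in limma voom 0. For mt-Cytb the libraries had 1733, 1965, 1932 and 2407 CPM with Lys05, against 5607, 3288, 1711 and 2218 CPM with Vehicle, which overlapped. Only mt-Atp6 did not overlap, at 1.91, 1.66, 1.96 and 1.68 CPM with Lys05, against 5.56, 3.03, 2.07 and 2.32 CPM with Vehicle, and 1.68% of tested genes did likewise, with 1.96% higher without overlap. Without the least correlated library of each group the median of the members was -0.55.

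Whether the drugs combine as the sum of their single effects was tested as an interaction of Lys05 and AC220. In LSK all 10 estimates were positive, between 1.15 for mt-Co1 and 1.5 ± 0.46 for mt-Nd1, so that the Combination values lay above that sum. No estimate passed (edgeR adjusted p from 0.274 to 0.476), where 0% of tested genes passed. All 10 had an unadjusted p under 0.05 in edgeR, as had 1645 of 15730 genes. In DESeq2, 1 member was higher while 5 members were given no adjusted p, with 113 genes higher and 5 lower. In limma voom 0 members passed. The median of 1.27 was 0.76 without the least correlated library of each group. In GMP the estimates ran from 3.45 for mt-Co2 to 4.45 ± 1.61 for mt-Atp6, again with 10 of 10 at an unadjusted p under 0.05 and 0 passing in edgeR (adjusted p from 0.442 to 0.521, 0% of tested genes passing), 1 in DESeq2 and 0 in limma voom. Of all genes tested in GMP, 1287 of 14572 had an unadjusted p under 0.05, and DESeq2 called 166 higher and 74 lower. The 10 genes move together within a library, so their shared sign is not 10 separate observations.

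The make-up of the messenger counts also differed in LSK with the drug. No scaling factor changes it, but shared sequence, transcript length and base composition can, and their part was not tested. In the 8 LSK libraries with AC220, alone or in Combination, mt-Nd1 took 9.70% to 13.4% of the 10 genes' counts, against 6.76% to 8.24% in the 8 without it. The gene mt-Nd2 took 1.92% to 2.64% with AC220, against 1.257% to 1.80% without, and neither gene's ranges overlapped. The gene mt-Cytb took less, 32.4% to 40.1% with AC220 against 40.4% to 50.1% without, also without overlap. The share of mt-Co2 was 0.0743% to 0.102% with AC220 against 0.0227% to 0.0348% without, and that of mt-Co3 0.0789% to 0.160% against 0.0473% to 0.0679%. These genes had few counts, 39 to 229 for mt-Co2 and 89 to 351 for mt-Co3 in a LSK library. Of their windows 99.4% and 99.8% are shared with a nuclear transcript. Reads set aside as not uniquely aligned were 5.51% to 7.35% of all counts in LSK with AC220 and 7.91% to 10.2% without. Ranges overlapped for mt-Nd6, at 1.005% to 1.57% against 1.04% to 1.30%, for mt-Nd4, at 5.72% to 7.57% against 5.72% to 7.32%, and for mt-Co1, at 27.7% to 37.1% against 26.2% to 32.7%, and also for mt-Nd5 and mt-Atp6. In GMP the ranges overlapped for all 10: mt-Co2 took 0.0203% to 0.0407% with AC220 against 0.0179% to 0.0316% without, and mt-Nd1 7.95% to 12.2% against 8.66% to 11.6%. These shares were compared by their ranges alone, with no test between the cell types.

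**Figure D5:**
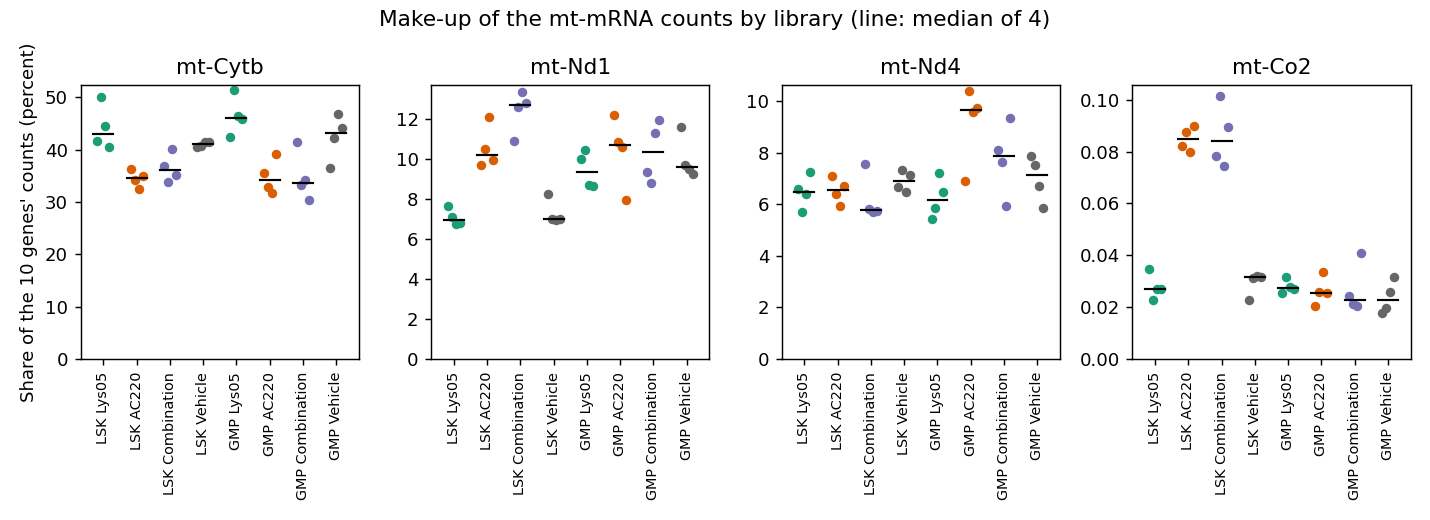
Share of the 10 genes' counts (vertical axis, percent) held by mt-Cytb, mt-Nd1, mt-Nd4 and mt-Co2 in each library, by cell type and treatment, 4 libraries per group with a line at the median. In LSK, mt-Co2 lies at 0.0743% to 0.102% with AC220 or Combination and at 0.0227% to 0.0348% with Lys05 or Vehicle, while mt-Nd4 overlaps. Of the windows of mt-Co2, 99.4% are shared with a nuclear transcript.

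In GMP the messengers of AC220 libraries were lower than those of Vehicle libraries, and none passed the test. For mt-Cytb the libraries had 6753, 1874, 3446 and 1311 CPM with AC220, against 38118, 19119, 9730 and 11510 CPM with Vehicle. These groups did not overlap (-2.59 ± 0.97, edgeR adjusted p = 0.377). The complex V gene mt-Atp6 had 4.69, 2.21, 4.37 and 1.11 CPM with AC220, against 34.9, 23.9, 12.3 and 15.1 CPM with Vehicle, also without overlap (-2.78 ± 1.17, edgeR adjusted p = 0.452). The groups overlapped for mt-Nd5, at 2354, 732, 1495 and 408 CPM with AC220 against 11832, 4472, 1909 and 2309 CPM with Vehicle, for mt-Co1 and for mt-Nd1. Thus 7 of the 10 did not overlap, while 4.71% of tested genes were lower and 1.72% higher without overlap. The median of the members was -2.40, and in LSK, where 8 passed, it was -1.93. A test of the difference between the cell types called 0 members. The common biological coefficient of variation was 1.06 in GMP and 0.475 in LSK, and its part was not tested. In GMP 0% of tested genes passed in edgeR. At an unadjusted p under 0.05 there were 9 of 10 members and 1386 of 14572 genes, and 0 members passed in DESeq2 and 0 in limma voom.

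Lys05 in GMP had 1 library apart from the other 3. The gene mt-Co1 had 23625, 2530, 851 and 1529 CPM with Lys05, against 29377, 11706, 4903 and 7410 CPM with Vehicle. Library 1 lay within the Vehicle range, and the other 3 below it (-1.36 ± 1.03, edgeR adjusted p = 1). The 4 macrophage markers summed to 137 CPM in library 1 and 17.0 to 25.9 CPM in the other 3, and their part was not tested. All 10 members overlapped through library 1, which lay above the whole Vehicle range for mt-Co2, mt-Co3 and mt-Atp6 and within it for the other 7, and 1.21% of tested genes were lower and 1.05% higher without overlap. The member median was -1.45 in edgeR and -2.33 without the least correlated library of each group, and neither made a call. All 10 were called lower by limma voom with quality weights, which called 203 genes higher and 553 lower of 14572, against 0 members in edgeR, 0 in DESeq2 and 0 at an unadjusted p under 0.05, where 0% of tested genes passed in edgeR.

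Combination in GMP held both high and low libraries. The gene mt-Cytb had 5913, 19247, 53598 and 5297 CPM with Combination, against 38118, 19119, 9730 and 11510 CPM with Vehicle, so that the Vehicle range lay inside that of Combination. The 4 macrophage markers summed to 44.9 to 475 CPM with Combination, against 7.09 to 31.9 CPM with Vehicle, all 4 having counts in each of these libraries, and library 3, with the highest share, had the 475 CPM. The 5 dendritic cell markers summed to 103 to 635 CPM with Combination, against 1759 to 5258 CPM with Vehicle, with Cd209a at 0 in 2 of the Combination libraries. The 4 erythroid markers summed to 238 to 1702 CPM with Combination, against 64.5 to 669 CPM with Vehicle, and the 7 granulocyte-lineage markers to 24033 to 32631 CPM with Combination, against 36888 to 45663 CPM with Vehicle. Their part in the messenger counts was not tested. Fitted changes ran from -0.60 for mt-Nd6 to 0.87 for mt-Atp6, with standard errors of 0.90 to 1.10, and 0 passed in edgeR, DESeq2 or limma voom, with 0 at an unadjusted p under 0.05 and 0% of tested genes passing in edgeR. All 10 members overlapped, while 4.43% of tested genes were lower and 1.45% higher without overlap. Against AC220, Combination values were higher by 1.85 for mt-Nd6 to 3.65 ± 1.21 for mt-Atp6 (edgeR adjusted p from 0.256 to 0.419), with overlap for all 10, where 1.72% of tested genes were higher and 2% lower without overlap. There 0.00686% of tested genes passed, 9 of 10 members had an unadjusted p under 0.05, as had 2035 of 14572 genes. In DESeq2 4 members were higher, with 547 genes higher and 271 lower, and in limma voom 0. Against Lys05 the estimates were 1.11 to 1.99, with 0 members passing in edgeR, 0 at an unadjusted p under 0.05, 0 in DESeq2 and 0% of tested genes passing in edgeR. In limma voom 3 were higher, with 455 genes higher and 57 lower of 14572. Without the least correlated libraries 2 were higher, with 357 genes higher and 105 lower of 14775.

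Under Vehicle, mitochondrial messengers were lower in LSK than in GMP. The gene mt-Nd6 had 180, 83.7, 50.038 and 61.6 CPM in LSK, against 2165, 991, 430 and 403 CPM in GMP. The lowest GMP library stood above the highest LSK library for mt-Nd6, and the log2 fold change was -3.80 ± 0.85 (edgeR, adjusted p = 0.00665). The groups were apart in this way for all 10 members, against 6.07% of tested genes. For mt-Cytb the libraries had 5607, 3288, 1711 and 2218 CPM in LSK, against 38118, 19119, 9730 and 11510 CPM in GMP (-2.97, edgeR adjusted p = 0.0211). In all, 7 of 10 were lower in LSK, where 4.84% of tested genes passed in either direction and 3.07% as lower, and the member median was -3.02 against 0 over all genes. The 3 that did not pass were mt-Atp6 (edgeR adjusted p = 0.0507), mt-Co2 (0.0629, edgeR adjusted p) and mt-Co3 (0.0933, edgeR adjusted p). This count was 3 without LSK Vehicle library 2, 1 without LSK Vehicle library 3 or 4 or GMP Vehicle library 1, and 3 without the filter on low counts.

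Under Combination all 10 messengers were lower in LSK than in GMP, at 28.9% of tested genes passing and 16.3% passing as lower. The gene mt-Co1 had 1837, 1498, 503 and 998 CPM in LSK, against 3710, 21779, 56890 and 5774 CPM in GMP. Its groups did not overlap (-5.15 ± 0.94, edgeR adjusted p = 0.000123), as for 8 of the 10, and 6.02% of tested genes did likewise. Under AC220, 7 of 10 were lower in LSK at 35.1% of tested genes passing, with mt-Nd6 at -3.34 (edgeR adjusted p = 0.00273) and mt-Co2 and mt-Co3 at -0.92 and -0.90, not called; the count was 4 without GMP AC220 library 1 or on total counts alone and 1 with the length and GC correction. Under Lys05, 3 of 10 were lower at 4.54% of tested genes passing, mt-Nd6 (-2.99), mt-Nd1 (-2.93) and mt-Atp6 (-3.09), and the count was 0 without GMP Lys05 library 1 or any 1 library of LSK Lys05, and 0 without the least correlated library of each group. The groups overlapped for all 10 under Lys05, while 9.02% of tested genes were lower and 14.1% higher without overlap. There mt-Nd6 had 45.5, 40.7, 52.1 and 67.9 CPM in LSK, against 1356, 159, 61.7 and 91.4 CPM in GMP. Marker sums of the gates stood apart between LSK and GMP in every comparison here, as given above, so cell type and sort gate cannot be told apart.

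In edgeR with the usual scaling, 0 members passed a test of whether a treatment effect differed between LSK and GMP. The AC220 effect in LSK minus that in GMP had a median of 0.63 over the members against 0.35 over all genes, with 0 passing although 16.8% of tested genes did. The Combination effect differed by a median of -1.60 (range -2.32 to -0.48) with 0 passing at 12.7% of tested genes, and the Lys05 effect by 0.54 with 0 passing at 0%. In each of the 3, 0 members had an unadjusted p under 0.05 in edgeR and 0 passed in DESeq2, while limma voom called 2 lower for Combination, where it called 1895 genes higher and 1444 lower of 17144, and 0 for the others. Without the least correlated libraries 2 were lower for Combination, with 2079 genes higher and 1747 lower of 17084. With the length and GC correction 4 were higher for AC220, with a median of 2.39, where 919 genes were higher and 1099 lower, and the Combination median was 0.37 with 0 called.

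The mitochondrial ribosomal RNAs, which come from the same precursors upstream of mt-Nd1, moved with the messengers. With AC220 in LSK, mt-Rnr1 was at -2.54 (edgeR adjusted p = 0.000702) and mt-Rnr2 at -2.17 (edgeR adjusted p = 0.000507) against Vehicle, and with Combination at -2.34 and -1.95. Both have a low GC content like the messengers, 35.8% and 35.4%, and they were not examined with the length and GC correction. Between the cell types under Vehicle they were at -3.64 (edgeR adjusted p = 0.0342) and -3.04 (edgeR adjusted p = 0.04). The number of messenger counts per ribosomal RNA count therefore varied less than the share did, from 3.80 to 9.81 over the 32 libraries. In GMP it was 7.60, 8.82, 9.20 and 9.73 with Lys05, 4.201, 4.44, 4.83 and 5.44 with AC220, 5.53, 3.87, 6.56 and 3.80 with Combination, and 4.81, 6.87, 8.46 and 8.76 with Vehicle. The GMP AC220 values lay below all 4 Lys05 values and overlapped with Vehicle through its library 1.

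Nuclear genes of the same pathways were followed from lists. With AC220 in LSK, most nuclear subunits of the complexes were lower: 32 of 35 tested complex I genes were lower and 1 higher, 7 of 8 in complex III were lower, 11 of 11 in complex IV, and 13 of 15 in complex V with 1 higher, where 25.5% of tested genes were lower and 29.4% higher. Examples are Ndufa12 of complex I at -4.47 ± 0.13, Uqcr10 of complex III at -3.12 ± 0.11, Cox7a2 of complex IV at -2.78 ± 0.11 and Atp5j of complex V at -3.22 ± 0.12, with edgeR adjusted p of 1.64e-12, 5.03e-12, 6.92e-12 and 7.23e-12 in that order. List medians were -2.67, -2.46, -2.32 and -2.46 for complexes I, III, IV and V, against -1.93 for the members. The share of counts on short transcripts given above moved with them, and its part was not tested. With AC220 in GMP the same lists had medians of 0.27, 0.27, 0.34 and 0.26, with 0 called, while the members had -2.40 with 0 called. Between LSK and GMP under Vehicle, 1 of 35 complex I genes (Ndufa2, -0.80, edgeR adjusted p = 0.0214) and 1 of 15 complex V genes (Atp5e, -0.61, edgeR adjusted p = 0.0283) were lower in LSK and 0 in complexes III and IV, counts near the 3.07% of tested genes that were lower, beside 7 of 10 messengers.

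Factors that copy, transcribe and process mitochondrial nucleic acids were called in both directions with AC220 in LSK, in shares near those of all tested genes, 29.4% higher and 25.5% lower. Of 20 tested genes for transcription and replication of mitochondrial DNA, 8 were higher and 5 lower, among them Ssbp1 (-3.26), which binds single-stranded mitochondrial DNA, Tefm (-1.72), a transcription elongation factor, and Twnk (1.10), the replicative helicase. Of 29 genes for RNA processing and stability, 10 were higher and 6 lower, with Rexo2, an exonuclease for short RNAs, at -2.24, Hsd17b10, a subunit of mitochondrial RNase P, at -2.59, Ptcd1 at 2.41 and Dhx30 at 1.24. Of 11 regulators of mitochondrial biogenesis, 8 were higher and 2 lower, a larger share higher than the 29.4% of all tested genes. They include Pprc1 (1.75), Myc (1.89), Nrf1 (1.52) and Gabpa (1.47). Of 15 tested mitophagy genes, 6 were higher and 3 lower, among them the autophagy receptors Sqstm1 (2.21) and Nbr1 (2.02), with Bcl2l13 at 1.98 and Fundc1 at -1.28. All of these passed in edgeR, with adjusted p from 1.92e-11 for Ssbp1 to 4.33e-05 for Twnk. The lists were not examined with the length and GC correction. With Lys05 in LSK and with AC220 in GMP, 0 genes of any of the lists passed, where 0% of all tested genes did. Between LSK and GMP under Vehicle, Tefm was the only called gene of the 4 lists of factors, higher in LSK (2.38, edgeR adjusted p = 0.0373). It was 1 of 20 tested genes in its list, and the others had 0 of 30, 0 of 11 and 0 of 15 called. Of all tested genes 1.77% were higher and 3.07% lower in that comparison.

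Within a cell type the 10 genes followed each other closely. In GMP, each gene's log2(CPM + 1) correlated with the mean of the other 9 at r = 0.969 to 0.993 over 16 libraries. In LSK, 8 genes did so at r = 0.881 to 0.975, while mt-Co3 had r = 0.632 and mt-Co2 r = 0.44. Among nuclear protein-coding genes, those most like the members in LSK were Rps27 (r = 0.964), Rps20 (r = 0.954), Cbx5 (r = 0.947), Rpl36a (r = 0.946) and Rps26 (r = 0.933), out of 9610 ranked. Rps27, Rps20, Rpl36a and Rps26 encode ribosomal proteins. Least like them in LSK were Necap2 (r = -0.877), Arhgap9 (r = -0.869), Zc3hc1 (r = -0.856), Imp4 (r = -0.853) and Spi1 (r = -0.837). In GMP the most alike were Dhx15 (r = 0.903), Nipbl (r = 0.885), Usp34 (r = 0.881), Crybg3 (r = 0.88) and Nemf (r = 0.879), out of 8245. The least alike there were Idh3g (r = -0.831), Phgdh (r = -0.83), Tcn2 (r = -0.826), Nudc (r = -0.817) and Tnfaip8l2 (r = -0.815). These are descriptions over 16 libraries that share treatment groups, depth and total.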

How the data were processed

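The authors deposited 1 table of raw counts per Ensembl gene for 32 libraries. Per the labels, RNA was amplified with SMARTer v4 and made into Nextera XT libraries, read in pairs of 150 bases. Tools named in the submitters' processing notes are STAR 2.7.3a, HTSeq 0.11.2, Trim Galore 0.6.5, bcl2fastq 2.20 and, with GRCm38 as the build, DESeq2 1.26.0. The annotation release and strand setting are not given in the sources used here. Its 5 summary lines, 15.2% to 30.9% of all counts, entered neither library sizes nor tests. Of 56246 rows, 55230 were named by GENCODE M21. Prorp was the only listed symbol without a row. One column name lacks a digit of the title it was matched to.

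The deposited counts went into edgeR 4.0.16 under R 4.3.3 (filterByExpr, TMM factors, robust quasi-likelihood test, two-sided) for LSK, for GMP and, between cell types, for all libraries, with Benjamini-Hochberg adjustment over all tested genes and calls at 0.05. The step was also run on simulated data, set less variable than these libraries and without genes that move together. That run is therefore no measure of power or error here. Alternatives used DESeq2 1.42.0 and limma 3.58.1 (voom). Copies were found with BLAST 2.17.0 at 90% identity or more over at least 100 aligned bases. Named genes are all members, up to 4 genes of each list with the smallest p, values given where called, and the 5 nuclear genes most and least like the members. Members, lists and alternatives were chosen with earlier results of these data known. P-values weigh a difference between groups against the spread between libraries. The labels give no animal number or batch, so what makes up that spread is not known.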

Additional observations from a re-analysis of the deposited data

Results flagged for a closer look

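GMP Lys05 library 1 lay far above the other 3 libraries of its group for the summed share and for every member. Its gap to the next library took 0.895 of the group's range for the share, 8.12% in library 1 and 1.15% in the next. For single genes it took 0.884 for mt-Nd1, 0.923 for mt-Nd2, 0.897 for mt-Nd4, 0.924 for mt-Nd5, 0.925 for mt-Nd6, 0.868 for mt-Cytb, 0.926 for mt-Co1, 0.863 for mt-Co2, 0.927 for mt-Co3 and 0.906 for mt-Atp6, all past Dixon's critical value for 4 libraries. For independent normal values chance gives about 1 such case in 20, and here 11 of 96 sets of values were flagged, all in this library. That rate need not hold here. The values were taken on the linear scale and span a wide range, and the sets hold genes that move together. The 4 macrophage markers summed to 137 CPM in this library and 17.0 to 25.9 CPM in the other 3, the 4 erythroid markers to 359 CPM and 33.4 to 82.9 CPM, and the 7 granulocyte-lineage markers to 24832 CPM and 45396 to 77069 CPM, with counts for every marker in each library. Their part was not tested.

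The gene mt-Nd3, a complex I subunit outside the chosen 10, had counts in every LSK library with AC220 and in none with Vehicle. It had 15, 30, 42 and 31 counts with AC220 and 40, 58, 10 and 35 counts with Combination, against 0 in all 4 Vehicle libraries. Of tested genes, 42.7% were higher without overlap with AC220 and 41.7% with Combination. In GMP it had 0 to 1 counts with AC220, against 6 to 16 counts with Vehicle. The lowest of these libraries stood at 0.311 CPM with AC220 and 0.198 CPM with Combination. Of its 150-base windows 97.0% occur in a nuclear transcript, so its counts share the uncertainty of mt-Co2, mt-Co3 and mt-Atp6.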

How the results depend on the processing

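No paired analysis was possible because the labels carry no replicate numbers. With the length and GC correction, the count of members higher and lower became 3 and 0 for AC220 against Vehicle in LSK (0 and 8 otherwise), 3 and 0 for Combination against Vehicle in LSK (0 and 8) and 7 and 0 for Combination against Lys05 in LSK (0 and 3). Log2 fold changes that turned positive were, for AC220 against Vehicle in LSK, mt-Nd1 0.86, mt-Nd2 0.97, mt-Nd4 0.24, mt-Nd6 0.62, mt-Co2 1.96, mt-Co3 1.55 and mt-Atp6 0.78. For Combination against Vehicle in LSK they were mt-Nd1 1.09, mt-Nd2 0.88, mt-Nd4 0.23, mt-Nd6 0.53, mt-Cytb 0.08, mt-Co2 2.06, mt-Co3 1.77 and mt-Atp6 0.89. For Combination against Lys05 in LSK they were mt-Nd1 1.97, mt-Nd2 1.94, mt-Nd4 1.21, mt-Nd5 0.84, mt-Nd6 1.06, mt-Cytb 0.83, mt-Co1 0.93 and mt-Atp6 1.54. The same correction gave 7 lower for LSK against GMP under Lys05, 1 lower under AC220, and 4 higher for the AC220 effect in LSK minus GMP. The cause was not tested.

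Total counts alone, an alternative added after seeing the data, gave 5 lower for Combination against Vehicle in LSK, 1 higher and 0 lower for Combination against Lys05 in LSK, and 4 lower for LSK against GMP under AC220. Leaving out the least correlated library of each group, also added afterwards, gave 5 lower for Combination against Lys05 in LSK, 2 higher for the same in GMP, 0 lower for LSK against GMP under Lys05 and 2 lower for the Combination effect in LSK minus GMP. Summing members with their chromosome 1 copies, added afterwards, and library sizes from nuclear genes moved no count of members by over 1.5 times. DESeq2 gave 5 lower for Combination against Lys05 in LSK. For the interaction it gave 1 higher in LSK (5 members without an adjusted p) and 1 higher in GMP. It also gave 4 higher for Combination against AC220 in GMP and 9 lower for LSK against GMP under Lys05. Limma voom gave 1 higher for Combination against AC220 in LSK, 5 lower against Lys05 in LSK, 10 lower for Lys05 in GMP, 3 higher for Combination against Lys05 in GMP, 1 lower for LSK against GMP under Lys05 and 2 lower for the Combination effect in LSK minus GMP. RLE factors gave 5 lower for Combination against Lys05 in LSK and 1 lower for LSK against GMP under Lys05, and the fit of only the compared groups gave 5 lower for Combination against Lys05 in LSK. Without the filter on low counts, LSK against GMP had 3 lower under Vehicle and 0 under Lys05.

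With single libraries left out, the lower counts ran from 8 to 9 for AC220 and 6 to 8 for Combination against Vehicle in LSK and from 1 to 5 for Combination against Lys05 in LSK. For LSK against GMP they ran from 1 to 10 under Vehicle, 0 to 6 under Lys05, 4 to 8 under AC220 and 9 to 10 under Combination. They ran from 0 to 1 for the Combination effect in LSK minus GMP, where GMP Vehicle library 1 decided, and all other counts stayed at 0. Under Lys05 the count was 0 without any LSK Lys05 library or GMP Lys05 library 1, and 1 without any library of LSK AC220 or LSK Combination, LSK Vehicle library 2, 3 or 4, GMP Lys05 library 2 or GMP Vehicle library 2. It was 5 without LSK Vehicle library 1, GMP Lys05 library 3 or 4, GMP AC220 library 1, GMP Combination library 1 or 4 or GMP Vehicle library 1, and 6 without GMP Combination library 3. Depth limits mt-Co2, mt-Co3 and mt-Atp6, which had as few as 39, 64 and 40 counts in a library.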
